A study of Mus musculus with 12 samples.

Results

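The genes of glycolysis and of the response to low oxygen were followed in gastruloids that developed inside dextran hydrogels. The set held 36 gene symbols, chosen by name with earlier results of these data known. They matched 37 Ensembl identifiers among the 55141 genes of the count table, since *Aldoa* carried 2. By role it comprised 4 transporters of glucose and lactate, 17 glycolytic enzymes (18 identifiers), 3 kinases that steer glycolytic flux and 12 other hypoxia-induced genes. Gastruloids, aggregates that elongate and form a body axis in culture, were grown from mESCs, mouse embryonic stem cells, of the 129/SVEV strain at 300 cells per aggregate. After 48 h of aggregation they received a 24 h pulse of 3 µM CHIR99021, an activator of Wnt signaling, and the gel, at a concentration of either 1.0 or 1.5 mM, was added 72 h or 96 h after seeding. All were released with dextranase and collected at 120 h, so that the time of embedding and the time spent in the gel cannot be told apart. Each of the 4 groups held 3 independent replicates of about 30 pooled gastruloids. No genotype or allele differed between the groups.

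Glycolysis splits glucose into pyruvate in the cytosol, and lactate dehydrogenase turns pyruvate into lactate, which leaves the cell through monocarboxylate transporters. When oxygen is scarce, prolyl hydroxylases no longer mark hypoxia-inducible factor (HIF) for destruction, and HIF binds short ACGTG or GCGTG cores and raises the transcription of glucose transporters, glycolytic enzymes and genes of survival, matrix and vessel growth. The tail bud and presomitic mesoderm of vertebrate embryos are known for high glycolytic activity in the presence of oxygen. In bulk RNA, a lower level in all cells and fewer cells of a type that expresses a gene cannot be told apart.

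Total counts ran from 23011791 to 27609422 per library. Markers of tissues that gastruloids form were present, and several moved with embedding time: the summed level of 10 cardiac mesoderm markers was 327 to 643 CPM (counts scaled to library totals with TMM factors) and 251 to 507 CPM for the 72 h libraries of 1.0 and 1.5 mM gels, against 36.5 to 128 and 114 to 197 CPM for those of 96 h. The 8 somite markers summed to 325 to 564 CPM at 72 h and 713 to 1015 CPM at 96 h, and the 10 naive pluripotency markers to 57.3 to 89.0 CPM and 112 to 158 CPM. A large part of the latter sum at 72 h came from *Tbx3*, which went the other way, with a mean of 33.5 CPM against 24.7 CPM. The log2 fold change of the other 9 was below 0. Across both gels 8 of 10 cardiac mesoderm, 0 of 7 tested somite and 0 of 10 pluripotency markers were higher at 72 h, and 0, 6 and 7 were lower, where 16.2% of all genes were higher and 14.8% lower. The 8 tail bud and presomitic mesoderm markers summed to 218 to 346 CPM at 72 h and 109.0 to 196 CPM at 96 h. Most of that sum came from *T*, with a mean of 227 CPM against 93.5 CPM. Of the 7 tested, 2 were higher and 2 lower, and 5 had a log2 fold change below 0 (median -0.30). The 8 endoderm markers summed to 378 to 620 CPM and 289.8 to 406 CPM (3 higher, 1 lower), and of 8 endothelium markers 1 was higher and 4 were lower. The mitochondrial share of counts was 1.68% to 2.60% at 72 h and 2.37% to 3.02% at 96 h, and the ribosomal RNA locus CT010467.1 took 0.207% to 6.12%, above 4% in replicate 1 of the 72 h, 1.5 mM group and replicate 2 of the 96 h, 1.5 mM group. The part of these differences in the results that follow was not tested.

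Most of the pathway was abundant. By mean FPKM over the 12 libraries, a level per length of transcript, *Gapdh* stood at 1349.8 and ranked 19th of 55138 genes, followed by *Ldha* at 959, *Pkm* at 759, *Aldoa* at 663, *Eno1* at 422 and *Tpi1* at 365. *Pgk1* and *Pgam1*, which follow *Gapdh* in the route, stood at 197 and 75.2 FPKM, *Pfkl*, the liver-type phosphofructokinase, at 72.7 FPKM and *Hk2*, a hexokinase, at 13.4 FPKM. Of the transporters, *Slc2a1* (GLUT1) stood at 109 FPKM, *Slc2a3* (GLUT3) at 58.8, and the lactate carriers *Slc16a1* (MCT1) and *Slc16a3* (MCT4) at 51.0 and 49.9. Several hypoxia markers were at the bottom of the order. *Car9*, a carbonic anhydrase, had 1 to 14 counts per library (0.0444 to 0.525 CPM) and did not pass the filter on low counts, the peptide *Adm* reached at most 0.811 CPM and *Ankrd37* at most 3.52 CPM, while the HIF targets *Ddit4* and *Bnip3* stood at 73.2 and 48.9 FPKM. *Eno1* has the near-identical copy *Eno1b*, listed at 103 FPKM, so that reads may be split between them, and the second *Aldoa* identifier (chr7:126800789-126809108 in mm10) lies beside the main one (chr7:126795233-126800751) at 1.96 FPKM.

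The question of the design was what changes with the time of embedding and with the gel. With both gels in a single fit of 6 against 6 libraries, 12 of the 36 tested identifiers were higher after embedding at 72 h and 0 were lower (edgeR quasi-likelihood test, Benjamini-Hochberg adjusted p below 0.05 over 16388 genes), where 16.2% of all genes were higher and 14.8% lower. All 4 transporters passed, with 4 of 18 enzyme identifiers (*Ldhb*, *Hk2*, *Pkm* and *Eno2*), 1 of 3 kinases (*Pfkfb3*) and 3 of 11 other hypoxia-induced genes (*P4ha1*, *Ddit4* and *Bnip3*). The changes were modest. The fold changes of the 12 ran from 1.16 for *Pkm* to 1.79 for *Slc2a3*, and 0 members passed with an absolute log2 fold change above 1 in any comparison, against 4.66% of all genes over both gels, 4.3% in 1.0 mM and 3.18% in 1.5 mM gels. The log2 fold change was above 0 for 34 of 36 members, against 48.9% of all genes, and its median was 0.21, against -0.01 over all genes. Here and in later counts out of 36, members are the tested identifiers, without *Car9* and with both identifiers of *Aldoa*. By role the median was 0.49 for transporters, 0.20 for enzymes, 0.13 for kinases and 0.18 for the other hypoxia-induced genes.

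**Figure D1:**
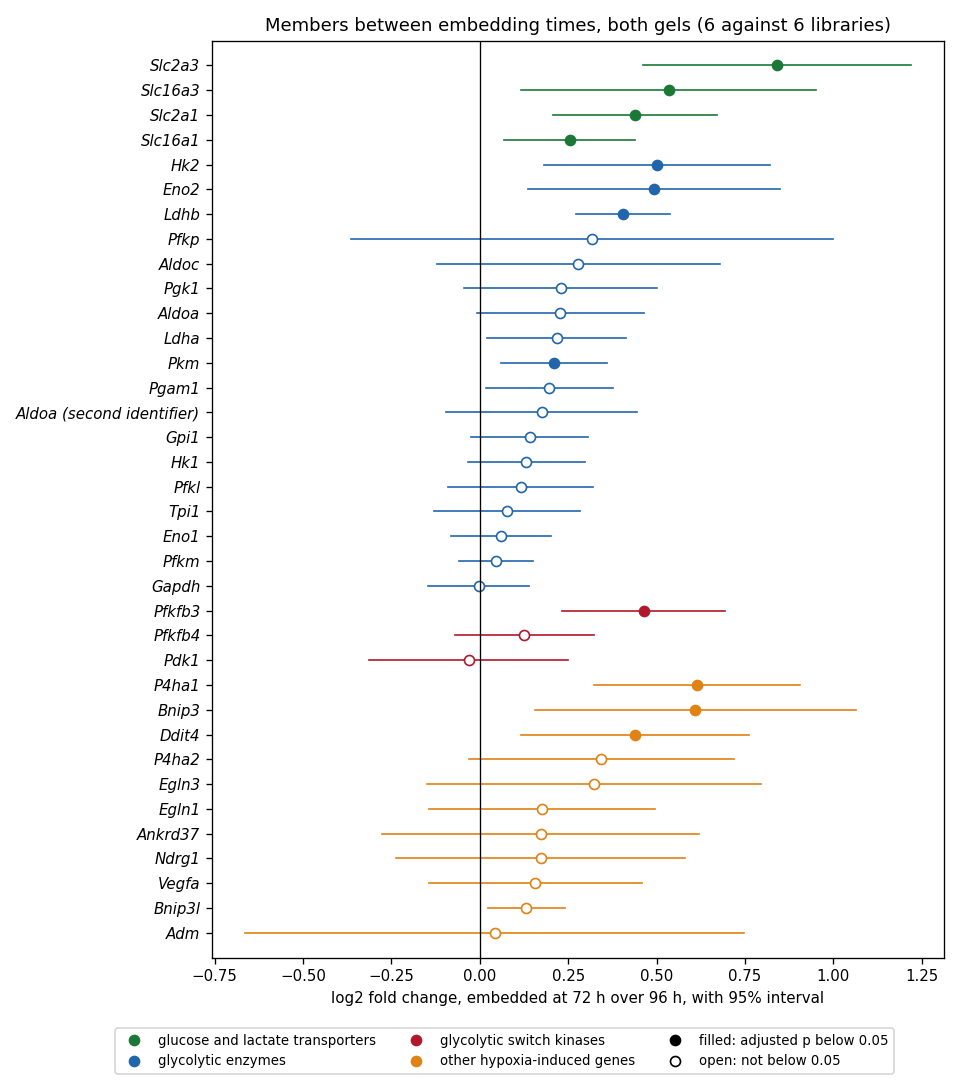
The x axis gives the log2 fold change of each tested member after embedding at 72 h over 96 h, in 6 against 6 libraries of both gels, with bars for the 95% interval, and the y axis lists the members by role. The 12 filled points passed at an adjusted p below 0.05 and lie between 0.21 for *Pkm* and 0.84 for *Slc2a3*.

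HIF binds a short core motif, so the 250 bases before each RefSeq transcription start (GRCm38.p6) were searched for ACGTG or GCGTG on either strand. Of the members 33 symbols had a promoter entry, in 47 windows, and 38 windows (80.9%) held at least 1 match, compared with 12679 of 32851 windows of all genes (38.6%). The members' windows were richer in G and C, with a median of 60.4% against 52.4%, and among all windows with a GC content between 55.2% and 67.6%, the middle range of the members, 54.5% held a match. Members that passed the test between embedding times held one in 11 of 13 windows (84.6%) and those that did not in 27 of 34 (79.4%). Some genes have several windows, and counted by gene the shares were equal, at 10 of 11 (90.9%) and 20 of 22 (90.9%). The 4 sequences shown belong to members that passed between embedding times, those with the smallest adjusted p among windows that hold a match and at most 30 exonic bases. They are read 5′ to 3′ on the strand of the gene and end at the base before the start, with matches in capitals (CACGT and CACGC are matches on the opposite strand). *Ldhb* has 1 match, at -126 from the start (chr6:142507958-142508207, minus strand), and *P4ha1* has 3, at -163, -126 and -16 (chr10:59323046-59323295, plus strand). *Pfkfb3* is shown at an internal start, where 2 of its 3 matches, at -53 and -52, overlap in the palindrome CACGTG and the other lies at -122 (chr2:11502091-11502340, minus strand), and *Hk2* has matches at -226 and -52 (chr6:82774455-82774704, minus strand). A match is a description of the letters and was not tested for binding.
Ldhb: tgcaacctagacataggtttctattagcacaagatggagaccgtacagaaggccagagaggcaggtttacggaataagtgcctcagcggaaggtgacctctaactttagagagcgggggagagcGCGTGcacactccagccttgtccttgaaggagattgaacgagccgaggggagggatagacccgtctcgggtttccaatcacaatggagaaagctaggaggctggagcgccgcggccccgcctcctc
P4ha1: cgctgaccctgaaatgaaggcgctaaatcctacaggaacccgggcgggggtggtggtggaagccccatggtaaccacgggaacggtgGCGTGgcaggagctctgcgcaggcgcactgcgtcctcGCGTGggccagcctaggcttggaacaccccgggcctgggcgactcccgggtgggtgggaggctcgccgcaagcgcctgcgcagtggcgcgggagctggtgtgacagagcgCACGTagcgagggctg
Pfkfb3: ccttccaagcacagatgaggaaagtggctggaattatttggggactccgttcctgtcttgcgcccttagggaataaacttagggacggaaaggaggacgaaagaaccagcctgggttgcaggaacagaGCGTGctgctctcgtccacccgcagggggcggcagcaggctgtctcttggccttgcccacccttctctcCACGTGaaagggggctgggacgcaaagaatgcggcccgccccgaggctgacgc
Hk2: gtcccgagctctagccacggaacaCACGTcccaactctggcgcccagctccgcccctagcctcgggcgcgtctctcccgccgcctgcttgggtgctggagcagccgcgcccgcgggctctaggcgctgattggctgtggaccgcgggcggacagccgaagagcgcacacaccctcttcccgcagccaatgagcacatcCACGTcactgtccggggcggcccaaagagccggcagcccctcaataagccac

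The transporters differed most as a group. *Slc2a3*, the high-affinity glucose transporter GLUT3 (chr6:122727808-122801640 in mm10), stood at 574, 415 and 317 CPM in replicates 1, 2 and 3 of the 72 h, 1.0 mM group and at 252, 189.8 and 269 CPM at 96 h. Its values in 1.5 mM gels were 500.0, 267 and 277 CPM at 72 h and 240.4, 218 and 139.8 CPM at 96 h. The embedding times did not overlap within either gel, and replicate 1 was the highest library of both 72 h groups. The log2 fold change over both gels was 0.84 ± 0.18 (SE), a 1.79-fold difference (95% interval of the log2 value 0.46 to 1.22, adjusted p = 0.00264). *Slc2a1*, the basal glucose transporter GLUT1, had 630.5, 610.1 and 481 CPM at 72 h against 458, 379 and 425 CPM at 96 h in 1.0 mM gels, and 639, 446 and 408 CPM against 409, 398 and 301 CPM in 1.5 mM gels. The times were separate in 1.0 mM gels and touched in 1.5 mM gels, where the lowest 72 h library fell just below the highest 96 h library (log2 fold change 0.44 ± 0.11, adjusted p = 0.00734).

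The lactate carriers were less clear. *Slc16a1*, which moves lactate in either direction, had 389, 348 and 328 CPM at 72 h against 280.2, 258 and 302 CPM at 96 h in 1.0 mM gels. The 1.5 mM gels gave 349, 259 and 247 CPM against 278, 263 and 220.2 CPM. Its libraries separated by time in 1.0 mM gels, while in 1.5 mM gels only replicate 1 of the 72 h group stood above the 96 h libraries (0.25 ± 0.09, adjusted p = 0.0378). *Slc16a3*, the exporter typical of glycolytic cells, had 283, 212 and 137 CPM against 179, 125 and 147 CPM in 1.0 mM gels and 264, 131 and 154 CPM against 139, 148 and 79.2 CPM in 1.5 mM gels. Its embedding times overlapped in both gels, and its adjusted p of 0.0497 lay just under the threshold (0.53 ± 0.20).

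Among the glycolytic enzymes, *Ldhb* separated best. This gene encodes the heart-type subunit of lactate dehydrogenase, which favors the conversion of lactate to pyruvate. It stood at 106, 129 and 117 CPM at 72 h and 87.5, 96.8 and 79.3 CPM at 96 h in 1.0 mM gels, and at 109, 125 and 109.5 CPM and 92.0, 86.7 and 83.0 CPM in 1.5 mM gels. All 6 libraries embedded at 72 h lay above all 6 embedded at 96 h, a separation reached by no other member, and by 6.47% of all genes in this direction and 5.36% in the other. The log2 fold change was 0.41 ± 0.06 (1.32-fold, 95% interval 0.27 to 0.54, adjusted p = 0.000253), the smallest adjusted p of the set. *Hk2*, the inducible hexokinase that opens the pathway, had 152, 112 and 99.3 CPM against 96.9, 80.7 and 84.2 CPM in 1.0 mM gels and 153, 76.8 and 87.7 CPM against 88.4, 70.1 and 60.6 CPM in 1.5 mM gels. Its times were separate in 1.0 mM gels and overlapped in 1.5 mM gels (0.50 ± 0.15, adjusted p = 0.0202).

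*Pkm*, the pyruvate kinase that closes the pathway, had 2326, 2049.6 and 2026 CPM at 72 h against 2029, 1940.1 and 2122 CPM at 96 h in 1.0 mM gels. In 1.5 mM gels it had 2118, 2136 and 2197 CPM against 1706, 1848 and 1512 CPM. The times overlapped in 1.0 mM gels and were separate in 1.5 mM gels, where the 96 h libraries were the low ones (0.21 ± 0.07, 1.16-fold, adjusted p = 0.0341). *Eno2*, the neuron-type enolase, had 22.4, 22.4 and 13.0 CPM against 14.6, 9.67 and 11.3 CPM in 1.0 mM gels, and 20.1, 12.7 and 14.6 CPM against 13.8, 15.2 and 10.0 CPM in 1.5 mM gels. It overlapped in both gels (0.49 ± 0.17, adjusted p = 0.0363).

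**Figure D2:**
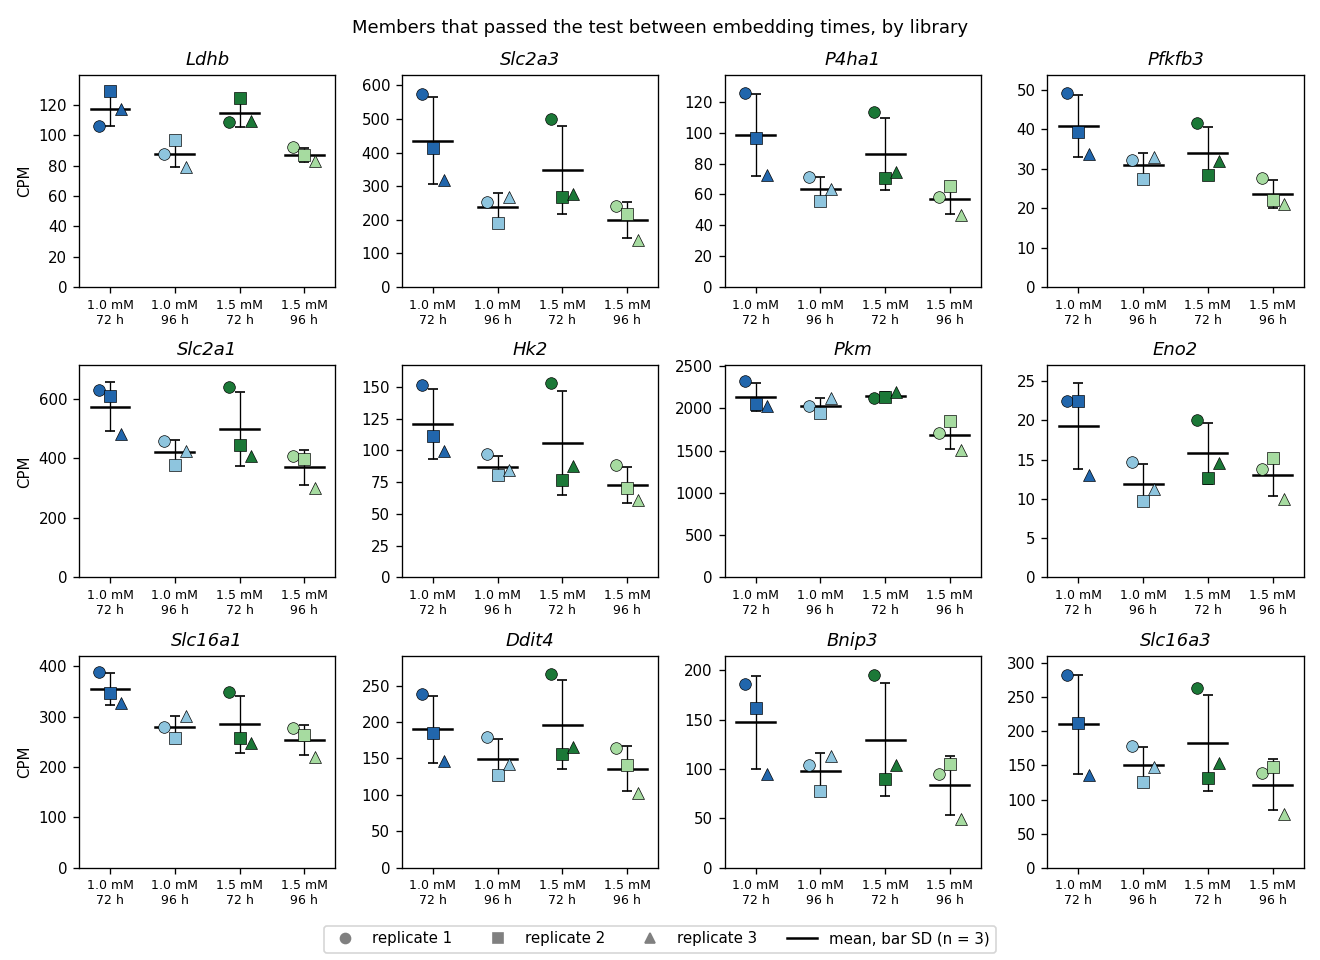
Each panel gives the CPM (y axis, from 0) of a member that passed the test, in the 4 groups by gel and embedding time on the x axis, with a symbol for each replicate, the mean as a line and the SD as a bar (n = 3). The 72 h libraries of *Ldhb* lie between 106 and 129 CPM, above the 79.3 to 96.8 CPM of 96 h, and in most other panels replicate 1 stands apart at 72 h.

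Apart from *Pkm*, the most abundant enzymes of the route did not pass. *Gapdh*, which makes the NADH of glycolysis, ran from 2309 to 2755 CPM over the 72 h libraries and from 2204 to 2785 CPM over the 96 h libraries, with a log2 difference of -0.00 (95% interval -0.15 to 0.14, adjusted p = 0.974). *Eno1*, the main enolase, had an interval of -0.08 to 0.20 (adjusted p = 0.524). *Ldha*, the muscle-type subunit of lactate dehydrogenase, had 2488, 2390.0 and 1870.2 CPM at 72 h against 2030.5, 1936 and 1959 CPM at 96 h in 1.0 mM gels, and 2389.6, 1800.2 and 1871 CPM against 1719, 1957 and 1429 CPM in 1.5 mM gels. Its times overlapped in both gels (0.22, adjusted p = 0.0877). The other 11 enzyme identifiers that missed the threshold had log2 differences from 0.05 for *Pfkm* to 0.32 for *Pfkp* and adjusted p from 0.0889 for *Pgam1* to 0.583 for *Tpi1*. *Pfkp*, the platelet-type phosphofructokinase, had the highest ratio between libraries of all tested members, from 7.99 to 37.3 CPM, and its interval reached from -0.37 to 1.00.

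Of the kinases, only *Pfkfb3* passed. Its enzyme makes fructose 2,6-bisphosphate, the activator of phosphofructokinase. It had 49.4, 39.3 and 33.8 CPM at 72 h against 32.3, 27.4 and 33.0 CPM at 96 h in 1.0 mM gels, and 41.5, 28.5 and 32.0 CPM against 27.6, 22.2 and 21.0 CPM in 1.5 mM gels. The times did not overlap within either gel, although by less than 1 CPM in each (0.46 ± 0.11, 1.38-fold, adjusted p = 0.00501). *Pdk1*, which shuts pyruvate out of the mitochondrial citrate cycle and is a widely used HIF target, ran from 98.2 to 164 CPM at 72 h and 95.3 to 159 CPM at 96 h. Its log2 difference was -0.03, with an interval of -0.31 to 0.25 (adjusted p = 0.879). *Pfkfb4*, a relative of *Pfkfb3*, differed by 0.13 (adjusted p = 0.321).

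Among the other hypoxia-induced genes, *P4ha1*, a subunit of the prolyl hydroxylase that matures collagen, had 126, 96.6 and 72.7 CPM at 72 h against 71.6, 55.8 and 63.4 CPM at 96 h in 1.0 mM gels. The values were 113, 70.6 and 74.6 CPM against 58.6, 65.7 and 46.4 CPM in 1.5 mM gels. The times did not overlap within either gel (0.61 ± 0.14, 1.53-fold, adjusted p = 0.0037). *Ddit4*, an inhibitor of mTORC1 that responds to hypoxia and other stresses, had 238, 185 and 147 CPM against 179, 127 and 142 CPM in 1.0 mM gels and 266, 156 and 165 CPM against 164, 141 and 103 CPM in 1.5 mM gels. It overlapped in both gels, with each 72 h library above the same-numbered 96 h library (0.44 ± 0.15, adjusted p = 0.0391).

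*Bnip3*, a mitophagy receptor, had 186, 162 and 94.8 CPM at 72 h against 104, 77.5 and 113 CPM at 96 h in 1.0 mM gels, and 195, 89.6 and 104 CPM against 95.4, 106 and 49.7 CPM in 1.5 mM gels. Its times overlapped in both gels, and its highest library was 3.93 times its lowest (0.61 ± 0.21, adjusted p = 0.041). The 8 that did not pass included *Vegfa*, the angiogenic growth factor, at 106 to 204 CPM at 72 h and 96.0 to 149.9 CPM at 96 h (0.16, adjusted p = 0.425). *Egln3*, an oxygen-sensing prolyl hydroxylase that HIF itself induces, had 29.2, 24.8 and 13.9 CPM against 20.9, 14.3 and 18.7 CPM in 1.0 mM gels and 32.3, 12.5 and 13.1 CPM against 16.6, 17.3 and 12.5 CPM in 1.5 mM gels. Its 72 h groups spanned the range of the 96 h groups (0.32, adjusted p = 0.285). The remaining 6 had log2 differences of 0.04 for *Adm* to 0.34 for *P4ha2* and adjusted p from 0.0596 for *Bnip3l* to 0.936 for *Adm*.

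Gel by gel, 5 members passed in 1.0 mM gels, where 5.97% of 15763 genes were higher and 3.27% lower: *Slc2a3* (0.88, adjusted p = 0.014), *Ldhb* (0.42, 0.0206), *Slc2a1* (0.45, 0.0299), *P4ha1* (0.63, 0.0349) and *Slc16a1* (0.35, 0.0373). In 1.5 mM gels 4 of the 36 passed, a share near that of all genes, where 10.4% of 15683 genes were higher and 8.98% lower: *Ldhb* (0.39, 0.00907), *Pkm* (0.34, 0.0205), *Pfkfb3* (0.52, 0.0393) and *P4ha1* (0.59, 0.0494). None was lower in either gel, and the medians over members were 0.18 and 0.24, against -0.01 over all genes in each. With limma on FPKM all 5 calls in 1.0 mM gels were lost (adjusted p 0.0582 to 0.127), and *Pfkfb3* lost its call in 1.5 mM gels with limma on FPKM (0.0596), upper quartile normalization (0.0512) and without the libraries above 4% CT010467.1 (0.143), while *Slc2a1* and *Slc16a1* lost theirs with all 12 libraries in the fit (0.0887 and 0.0927). With 1 library left out the medians ran from 0.10 (without replicate 1 of the 72 h group) to 0.33 (without its replicate 3) in 1.0 mM gels, and from 0.10 (without replicate 1 of the 72 h group) to 0.36 (without replicate 2 of the 96 h group) in 1.5 mM gels. With the replicate number as a block, 8 members passed in 1.5 mM gels, and the share of all genes that were higher rose to 13.1%. Without overlap between times were 8 members in 1.0 mM gels, all higher at 72 h (14.6% of all genes), and 7 in 1.5 mM gels (20% of all genes, near the share of the members), and 0 were lower without overlap (13.8% and 20% of all genes).

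The gels share no library, so the direction in each can be set side by side. Same-numbered replicates correlated across gels and the members moved together by library, so neither gels nor members are independent observations. Of the 36 members, 30 (83.3%) were higher at 72 h in both gels, 0 were lower in both and 6 went opposite ways, whereas 38.1% of 15426 genes tested in both gels were higher in both and 39.9% lower in both. A log2 fold change above 0.2 in both gels was found for 12 members (33.3%), against 15.4% of all genes. By role these were 3 of 4 transporters, 3 of 18 enzymes (16.7%), 1 of 3 kinases and 5 of 11 other hypoxia-induced genes (45.5%), so the share of enzymes was near that of all genes. *Ldhb* and *P4ha1* passed the test in both gels, but *P4ha1* did not in 1.5 mM gels with DESeq2 (adjusted p = 0.102), limma-voom (0.054), limma on FPKM (0.0661), upper quartile normalization (0.0602), a filter of 1 CPM (0.0523) or all 12 libraries in the fit (0.0532), nor in 1.0 mM gels with limma on FPKM (0.127) or all 12 libraries (0.0569).

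**Figure D3:**
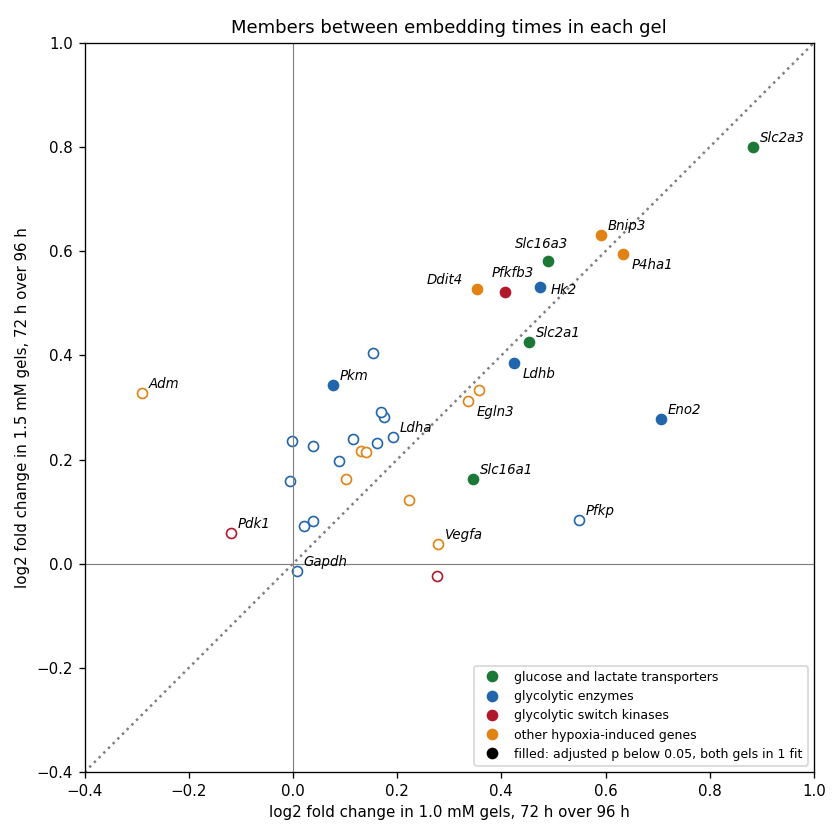
Each point is a member, with its log2 fold change of 72 h over 96 h in 1.0 mM gels on the x axis and in 1.5 mM gels on the y axis. Filled points are the 12 that passed with both gels in a single fit, the dotted line marks equal change, and 30 of the 36 points lie above 0 on both axes.

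Gel concentration made no detected difference to the set. At 72 h, 0 of 36 members passed between 1.5 and 1.0 mM gels, as did 0% of 15563 genes, although 6.9% had an unadjusted p below 0.05. The smallest adjusted p was 0.704 for *Slc16a1*, at a log2 difference of -0.32. At 96 h 0 passed, again with 0% of 15861 genes (9.95% at an unadjusted p below 0.05), and the smallest was 0.303 for *Pfkfb3*, at -0.39 (95% interval -0.64 to -0.14). With both times in a single fit 0 members passed, with 0.0305% of all genes (12.7% at an unadjusted p below 0.05), and the smallest adjusted p was 0.241 for *Pfkfb3*, at -0.33 (-0.56 to -0.10). Of the members, 31 of 36 had a log2 difference below 0 and 5 above it, where 48.7% of all genes were above it, with a median of -0.12 against -0.00 over all genes, and with 1 library left out that median ran from -0.21 (without replicate 1 of the 72 h, 1.5 mM group) to -0.08 (without replicate 1 of the 72 h, 1.0 mM group), and was -0.26 without both libraries above 4% CT010467.1. At 72 h alone the median was -0.11 and ran from -0.28 without replicate 1 of the 1.5 mM group to 0.02 without replicate 1 of the 1.0 mM group. The role medians over both times were -0.24 for transporters, -0.11 for enzymes, -0.20 for kinases and -0.08 for the others. At 96 h *Pkm*, *Eno1* and *Hk1*, a constitutive hexokinase, were lower in 1.5 mM gels without overlap (8.08% of all genes) and 0 members were higher (7.46%). At 72 h *Pfkm*, the muscle-type phosphofructokinase, was higher without overlap (5.97% of all genes) and 0 were lower (5.11%). The difference of the embedding effect between gels was not detected for any member. Its smallest adjusted p was 0.953, 23 members had a positive value (51.6% of all genes) and 13 a negative one, and the largest departure by unadjusted p was that of *Pkm*, with a log2 difference of 0.28 between the gels' effects (unadjusted p = 0.0438, 0 of 16388 genes past the adjusted threshold and 4.32% at an unadjusted p below 0.05).

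Within groups the members moved together by library. In the 72 h, 1.0 mM group replicate 1 was the highest of the 3 libraries for 28 of the 36 tested identifiers and replicate 3 the lowest for 32. In the 72 h, 1.5 mM group replicate 1 was the highest for 30 and replicate 2 the lowest for 30, and in the 96 h, 1.5 mM group replicate 3 was the lowest for 33. Over all 12 libraries, replicate 1 of the 72 h groups held the highest level of 15 members in 1.0 mM and 14 in 1.5 mM gels, and replicate 3 of the 96 h, 1.5 mM group the lowest of 27. On the log2(CPM + 1) scale, centered on each gene's mean over the libraries, the median of the members was 0.36, 0.22 and -0.08 in the 72 h, 1.0 mM group and 0.02, -0.14 and 0.02 at 96 h. It was 0.35, -0.10 and -0.03 in the 72 h, 1.5 mM group and -0.10, -0.01 and -0.45 at 96 h. Over all 12 libraries these medians overlapped between the times, at -0.10 to 0.36 at 72 h and -0.45 to 0.02 at 96 h. *Gapdh*, *Pfkm* and *Bnip3l* varied least, with highest over lowest ratios of 1.26, 1.20 and 1.28, against 4.11 for *Slc2a3*, 3.57 for *Slc16a3* and 2.52 for *Hk2*.

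**Figure D4:**
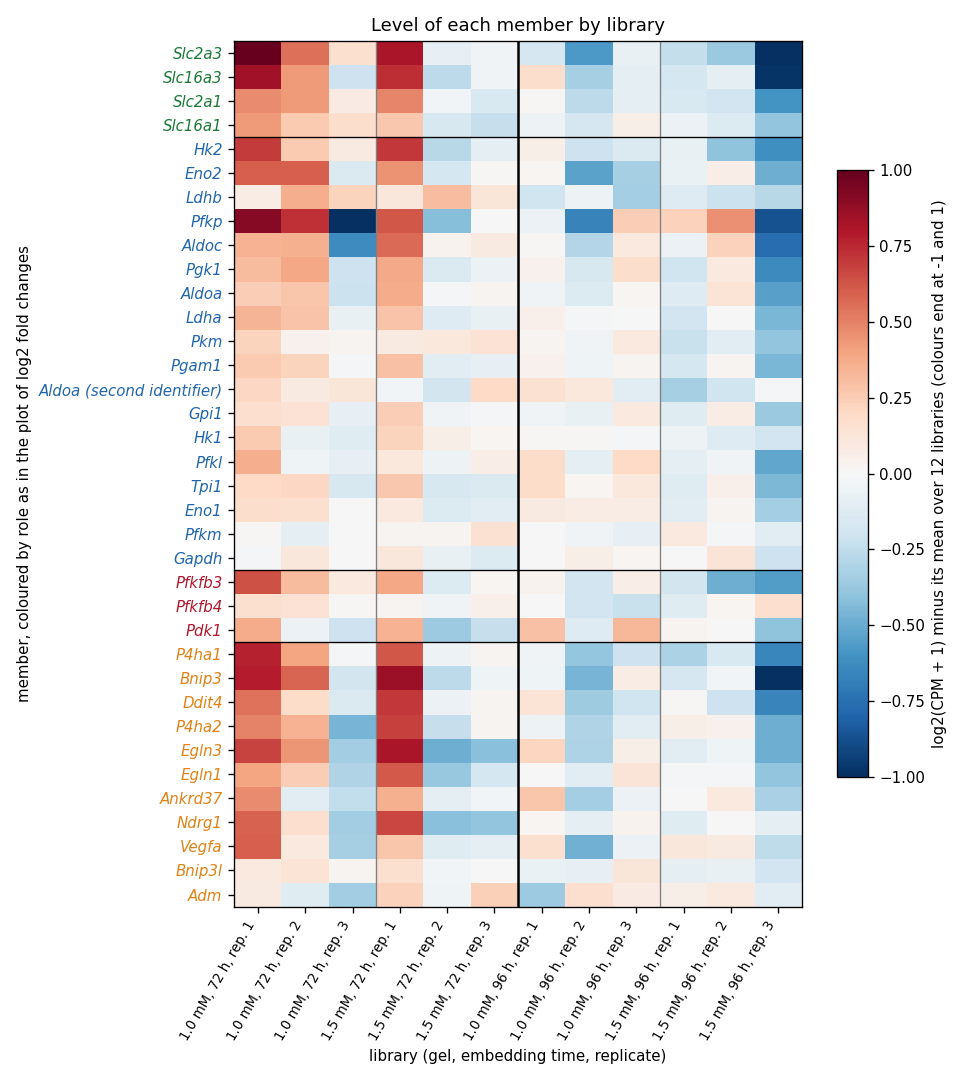
The color gives log2(CPM + 1) of each member (y axis, by role) in each of the 12 libraries (x axis) minus its mean over the libraries, with red above and blue below. Replicate 1 of both 72 h groups is red for most members, with medians of 0.36 and 0.35, and replicate 3 of the 96 h, 1.5 mM group is blue, with a median of -0.45.

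The calls depended in part on single libraries. Without both libraries above 4% CT010467.1, an alternative chosen after seeing the data, 5 of the 12 calls over both gels were left (11.6% of all genes higher). *Slc2a1*, *Slc2a3*, *Ldhb*, *Pfkfb3* and *P4ha1* passed in all 22 alternative fits over both gels. *Slc16a3* lost its call with DESeq2 (adjusted p = 0.0809) and in 6 further fits with other tools, normalizations or filters (0.0501 to 0.0663), *Bnip3* with DESeq2 (0.0626), limma-voom (0.0533) and limma on FPKM (0.0617), *Ddit4* with DESeq2 (0.0672) and limma on FPKM (0.0533), and *Slc16a1* with upper quartile normalization (0.0539). The 7 members other than the first 5 also lost the call when a single library was left out. Without replicate 1 of the 72 h, 1.0 mM group all 7 lost it (adjusted p 0.0517 to 0.126), as they did without replicate 3 of the 96 h, 1.5 mM group (0.0526 to 0.109). Without replicate 2 of the 96 h, 1.0 mM group (0.056 to 0.105) or replicate 1 of the 72 h, 1.5 mM group (0.0657 to 0.143) all but *Hk2* lost it. Without replicate 2 of the 72 h, 1.0 mM group *Slc16a1*, *Slc16a3*, *Bnip3* and *Eno2* did (0.0539 to 0.076), and without replicate 3 of the 96 h, 1.0 mM group *Ddit4*, *Eno2* and *Slc16a3* (0.0628 to 0.0748). *Bnip3* and *Slc16a1* lost it without replicate 1 of the 96 h, 1.0 mM group (0.059 to 0.0722) and *Slc16a3* and *Pkm* without replicate 1 of the 96 h, 1.5 mM group (0.0557 to 0.0711). *Pkm* also lost it without replicate 2 or 3 of the 72 h, 1.5 mM group (0.0666 and 0.0681), and *Ddit4* without replicate 2 of the 96 h, 1.5 mM group (0.0653). Without replicate 3 of the 72 h, 1.0 mM group no call was lost, and *Ldha*, *Aldoa*, *Bnip3l* and *P4ha2* passed as well.

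The same was true within each gel. In 1.0 mM gels *Slc2a3* lost its call without replicate 2 of the 96 h group, as did *Slc2a1*, *P4ha1* and *Slc16a1* (adjusted p 0.0695 to 0.17), and *Slc16a1*, *Slc2a1*, *Ldhb* and *P4ha1* without replicate 3 (0.0678 to 0.115). *Ldhb* and *Slc16a1* lost it without replicate 1 of the 96 h group (0.0748 to 0.121), *P4ha1*, *Slc2a1* and *Slc16a1* without replicate 1 of the 72 h group (0.0712 to 0.112), and *P4ha1* and *Slc2a1* without replicate 2 (0.0525 to 0.058). Without replicate 3 of the 72 h group 12 members passed, with 5.06% of all genes higher, and *Slc2a3* reached a log2 fold change of 1.07. In 1.5 mM gels *Ldhb* kept its call whichever library was left out. *P4ha1* and *Pfkfb3* lost theirs without replicate 1 of the 72 h group (0.0514 to 0.0561) or replicate 2 of the 96 h group (0.0691 to 0.13), *Pkm* without replicate 2 of the 72 h group (0.0576), and *P4ha1* without replicate 1 of the 96 h group (0.103). All 3 lost theirs without replicate 3 of the 72 h group (0.064 to 0.0753) or of the 96 h group (0.0703 to 0.164).

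Several steps can be served by more than a single isoenzyme or carrier, and the share of each was compared as FPKM of the named gene in percent of the summed FPKM of the alternatives, over the 6 libraries of each time. The share of GLUT3 was higher at 72 h. *Slc2a3* made up 42.8%, 35.9% and 35.1% of *Slc2a1* and *Slc2a3* in 1.0 mM gels embedded at 72 h and 31.2%, 29.2% and 34.2% at 96 h. In 1.5 mM gels the shares were 39.1%, 33.0% and 35.7% at 72 h and 32.6%, 31.0% and 27.6% at 96 h. The times did not overlap within either gel. The mean was 37.0% ± 3.48 (SD, n = 6) at 72 h and 31.0% ± 2.34 (SD, n = 6) at 96 h, a difference of 5.99 points (two-sided exact permutation test within gels, p = 0.005, the smallest the 400 assignments can give, adjusted p = 0.035 over 7 shares). The difference ran from 4.77 to 6.72 points when single libraries were left out, with adjusted p from 0.0175 to 0.105. The call was lost without replicate 1 of the 72 h group of either gel, replicates 1 or 2 of the 96 h, 1.0 mM group, or any replicate of the 96 h, 1.5 mM group.

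The other 6 shares did not pass. *Hk2* made up 76.3% ± 4.32 (SD) of both hexokinases at 72 h and 71.5% ± 2.48 at 96 h (n = 6 each, difference 4.81 points, exact permutation p = 0.035, adjusted p = 0.0817). *Eno2* made up 0.968% ± 0.175 and 0.722% ± 0.117 of both enolases (n = 6 each, exact permutation p = 0.035, adjusted p = 0.0817). For *Slc16a3* among the lactate carriers the shares were 51.5% ± 5.63 and 44.4% ± 7.88 (n = 6 each, exact permutation adjusted p = 0.175), and for *Ldhb* among the dehydrogenase subunits 6.21% ± 1.07 and 5.41% ± 0.730 (n = 6 each, exact permutation adjusted p = 0.203). *Aldoc*, the brain-type aldolase, differed by 0.0409 points (exact permutation adjusted p = 0.69). *Pfkp* was listed at 0 FPKM in 8 libraries that held 192 or more of its counts, so its share (exact permutation adjusted p = 0.513) rests on failed estimates.

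**Figure D5:**
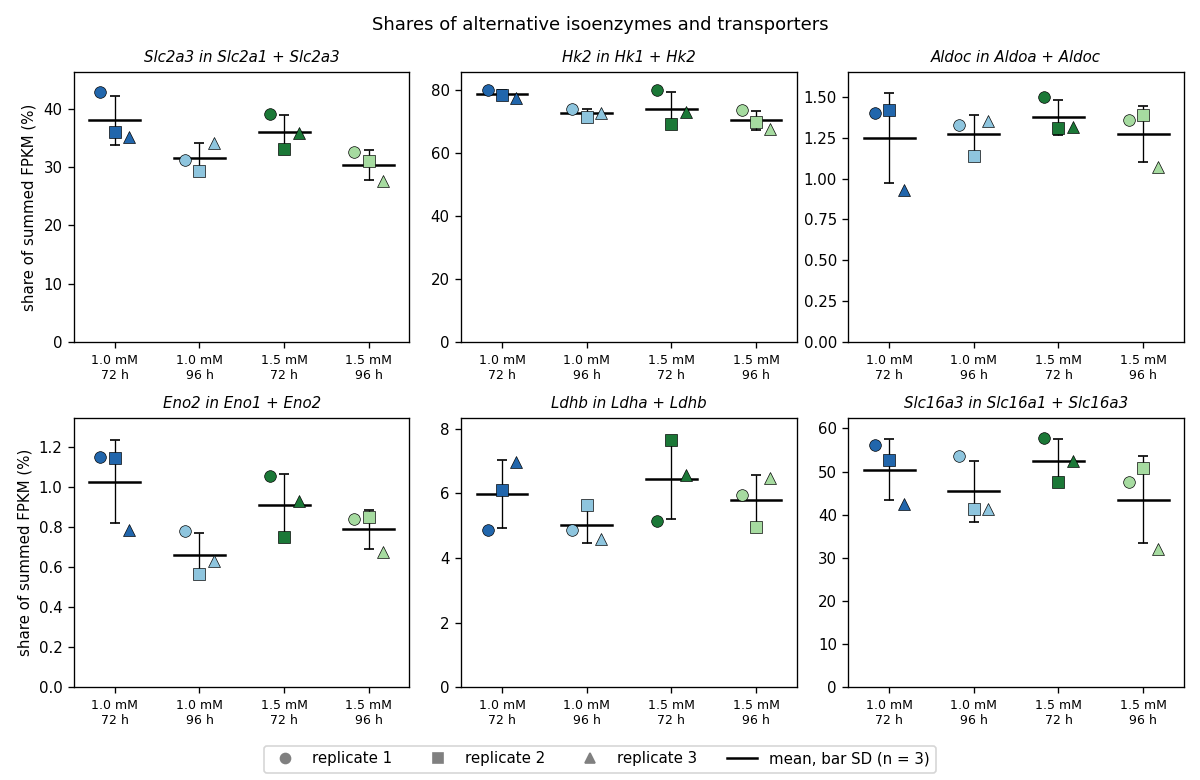
Each panel gives the share of a gene in the summed FPKM of its alternatives in percent (y axis, from 0) in the 4 groups by gel and embedding time on the x axis, with a symbol for each replicate, the mean as a line and the SD as a bar (n = 3). The share of *Slc2a3* is 33.0% to 42.8% at 72 h and 27.6% to 34.2% at 96 h, without overlap inside a gel.

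Lists of pathway genes outside the set are read against the 16.2% of all genes that were higher and 14.8% that were lower between embedding times, and most of their counts were near those shares. Of 9 HIF factors and oxygen sensors, 2 were higher at 72 h and 2 lower, with a median log2 fold change of 0.06. *Hif1a*, the oxygen-regulated subunit, had a mean of 232 CPM at 72 h and 191 CPM at 96 h (0.28 ± 0.06, adjusted p = 0.00195), and its partner *Arnt* differed by 0.19 (adjusted p = 0.045). *Cited2*, which competes with HIF for its coactivator, was lower at 72 h, with a mean of 150.3 CPM against 182 CPM (-0.28 ± 0.04, adjusted p = 0.000388). The oxygen sensor *Egln2* was also lower at 72 h, at -0.16 (adjusted p = 0.0238). Of 26 further tested hypoxia-induced genes 6 were higher and 2 lower (median 0.09). The most significant were the glycogen genes *Gys1* (0.44 ± 0.06, adjusted p = 0.000119) and *Pgm1* (0.64 ± 0.15, adjusted p = 0.00503), and the lysyl hydroxylases of collagen went opposite ways, with *Plod2* at 0.32 (adjusted p = 0.0237) and *Plod1* at -0.38 (adjusted p = 0.0143).

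Beyond pyruvate, 2 of 12 genes of its entry into mitochondria were higher and 1 lower (median 0.01). *Pdha1*, the catalytic subunit of pyruvate dehydrogenase, differed by 0.27 ± 0.04 (adjusted p = 0.000363) and *Pdp2*, a phosphatase that activates the enzyme, by 0.46 ± 0.09 (adjusted p = 0.00181). *Mpc1*, a subunit of the mitochondrial pyruvate carrier, was lower at 72 h (-0.43 ± 0.11, adjusted p = 0.00674) at 2.35 to 4.09 CPM. Of 7 pentose phosphate enzymes *Rpe* was higher (0.15, adjusted p = 0.0438) and *Pgls* lower (-0.29, adjusted p = 0.00542). *Ddit4* also responds to the stress factor ATF4, and of 10 genes of that response 2 were higher and 1 lower, with *Asns* at 0.53 (adjusted p = 0.00181), *Sesn2* at 0.33 (adjusted p = 0.0193) and *Ddit3* at -0.45 (adjusted p = 0.0189). By gel, 4 of 9 tested were higher in 1.0 mM gels (median 0.38), where 5.97% of all genes were higher. In 1.5 mM gels 0 of 9 were higher (median -0.12), where 10.4% of all genes were. The difference between the gels' effects was below 0 for all 10, where 51.6% of all genes were above it. It passed for 0 (smallest adjusted p = 0.953). Of 10 mitosis genes 0 were higher and *Aurkb* was lower (-0.13, adjusted p = 0.0253).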

How the data were processed

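Poly-A RNA of 12 pooled samples was sequenced with paired ends of 75 bp. The authors trimmed with cutadapt 4.4, aligned to mm10 with STAR 2.7.10b and deposited raw counts per gene on a customized Ensembl annotation. The methods give STAR as their source while the deposited table's name refers to HTSeq, and the strand setting is not stated. The authors computed the deposited FPKM values with Cufflinks 2.2.1.3. Their table of DESeq2 comparisons (log2 fold changes and adjusted p-values) was not used.

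Counts were normalized with TMM and filtered with filterByExpr (minimum count 10), without 36 mitochondrial genes, and tested with glmQLFit and glmQLFTest of edgeR 4.0.16 in R 4.3.3, with Benjamini-Hochberg adjustment over all genes tested. Pairwise comparisons used the libraries of both groups, the others all 12. Alternatives used DESeq2 1.42.0, limma 3.58.1, other normalizations, filters and thresholds, a replicate block, and each library left out. The code was tested on simulated data. Across genes, the deviations of same-numbered replicates from their group means correlated positively in every pair of groups. Between embedding times the values were 0.424, 0.215 and 0.0547 in 1.0 mM gels and 0.250, 0.123 and 0.300 in 1.5 mM gels. The main fits left the replicate number out, and it entered only as a block among the alternatives. Precision is limited by 3 replicates a group and, for *Adm* and *Car9*, by few counts.

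All members could be named, with values per library for those that passed, and of each other list up to 4 genes with the smallest adjusted p. One list symbol was not matched. The members and lists were chosen with earlier results of these data known.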

Additional observations from a re-analysis of the deposited data

How the results depend on the processing

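For embedding time over both gels the 12 calls (16.2% of all genes higher) became 5 at an adjusted p below 0.01 (9.18%), 22 without a filter on low counts (9.05%) and 5 without the 2 libraries high in ribosomal RNA (11.6%, chosen after seeing the data), and 5 to 16 with 1 library left out. The median log2 fold change of the members was 0.21 both in the main fit and without a filter. The 22 calls thus came with smaller p-values and not with larger changes of the set. The 5 calls in 1.0 mM gels (5.97%) became 0 at an adjusted p below 0.01 (2.47%), 8 with DESeq2 (6.80%), 0 with limma on log2(FPKM + 1) (2.76%), 13 without a filter (5.00%), 2 with all 12 libraries in the fit (6.60%), 9 with the replicate block (8.44%), and 1 to 12 with 1 library left out. The 4 in 1.5 mM gels (10.4%) became 1 at an adjusted p below 0.01 (3.07%), 2 with limma on log2(FPKM + 1) (5.29%), 2 with upper quartile normalization (8.61%), 15 without a filter (6.89%), 8 with the replicate block (13.1%), and 1 to 3 with 1 library left out. Between gels at 96 h, 8 members were lower without a filter and 1, *Pfkfb3*, with the block, and over both times 6 were lower without a filter. The block changed no other call except 14 against 12 over both gels. Of the 4 pairwise comparisons only that of embedding time in 1.5 mM gels had every same-numbered pair of libraries correlate above 0.1. In the others every same-numbered pair correlated positively, though some below 0.1. The cause of these shifts in the calls was not tested. A log2 fold change above 1 was reached by 0 to 1 members in 1.0 mM gels with 1 library left out (*Slc2a3*).

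With the replicate block, a test that flips the signs of differences between same-numbered libraries, the *Slc2a3* share lost its call (adjusted p = 0.146). The difference of 5.99 points is the same by construction. That test cannot give a p below 0.03125, so after adjustment over 7 shares no share could pass alone, and the lost call decides nothing. The *Slc2a3* share passed in 5 of 12 fits with 1 library left out (4.77 to 6.72 points). The *Hk2* share ran from 3.35 to 6.03 points and that of *Eno2* from 0.210 to 0.305, each passing without replicate 2 of the 72 h, 1.5 mM group. The *Aldoc* share ran from -0.00894 to 0.121 points, with -0.00056 without replicate 2 of the 72 h, 1.0 mM group and -0.00894 without replicate 3 of the 96 h, 1.5 mM group.

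Values near 0 changed sign over both gels with 1 library left out. The log2 fold change of *Gapdh* ran from -0.0425 to 0.0311, that of *Pdk1* from -0.156 to 0.0338 and that of *Adm* from -0.107 to 0.208 (and was -0.0263 without the libraries high in ribosomal RNA), and without replicate 1 of the 72 h, 1.5 mM group *Ndrg1* was at -0.0405 and *Tpi1* at -0.00704. In 1.5 mM gels *Slc16a1* ran from -0.0141 without that library to 0.257. The median over members stayed between 0.14 and 0.27 over both gels.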
